A study of Mus musculus with 36 samples.

Results

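Conventional type 1 dendritic cells (cDC1) that received lipopolysaccharide (LPS) together with the oxidised phospholipid PGPC were compared with cDC1 that received PGPC alone, across all genes. There were 3 libraries in each group, 6 of the 36 libraries in the series, chosen by their labels. The cells came from mouse bone marrow cultured with FLT3 ligand, and both groups carried the lipid, so that LPS was the labelled difference. The other groups used here were cDC1 with LPS and cDC1 with nothing added (3 libraries each), and conventional type 2 dendritic cells (cDC2) with LPS plus PGPC (3 libraries) and with PGPC (2 libraries in the fit). Strain, sex, age, doses, times and the order in which LPS and lipid were added are not in the labels, nor is the gate or sort that separated cDC1 from cDC2. The labels call the 3 samples of a group biological replicates, and each library was made by Smart-Seq2 from RNA equal to about 2000 cells.

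LPS is the outer membrane lipid of Gram-negative bacteria. CD14 hands it to the TLR4 receptor, which signals through MyD88 to NF-kB and AP-1 and through TRIF to interferon regulatory factors, and interferon made by the cell then switches on a further set of genes. A dendritic cell that has sensed LPS matures: it loads more peptide on MHC molecules, shows costimulatory ligands to T cells and follows CCR7 to the lymph node. PGPC is one of the products formed when membrane phosphatidylcholine is oxidised in damaged tissue, and with LPS it is known to make dendritic cells release interleukin-1 beta while they stay alive, a state called hyperactive. cDC1 are the dendritic cell type best known for presenting cell-derived antigen to CD8 T cells.

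Total expected counts were 6121000, 8290415 and 11999793 in the LPS plus PGPC libraries and 16601064, 2460024 and 13589259 in the PGPC libraries. Gene symbols detected were 13922, 15469 and 14964 in LPS plus PGPC libraries and 14643, 12799 and 15262 in PGPC libraries. PGPC library 2 was the shallowest of the 6. The ribosomal RNA locus on chromosome 17 took 7.7, 26.6 and 39.1% of counts in LPS plus PGPC libraries and 14.1, 33.4 and 35.4% in PGPC libraries. Mitochondrial transcripts took 0.0715, 0.642 and 0.434% in LPS plus PGPC libraries, below the 0.891, 0.716 and 2.0% in PGPC libraries in every case (two-sided exact permutation test, p = 0.1, the smallest p that 3 against 3 allows). Spearman's rho between libraries across genes was 0.892 to 0.955 within LPS plus PGPC, 0.824 to 0.881 within PGPC and 0.746 to 0.799 between the groups. Levels below are in CPM (counts divided by the scaled library total), scaled by trimmed mean of M values (TMM) over libraries without alum, since the 12 alum libraries detected only 467 to 2610 genes. A CPM level is not corrected for gene length and is compared here only between libraries, not between genes.

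With the lipid present, LPS changed 2044 of 12463 genes tested at an adjusted p under 0.05 (edgeR quasi-likelihood test, Benjamini-Hochberg over all genes tested). Of these, 1220 were higher (9.79%) and 824 lower (6.61%) in LPS plus PGPC cells, and the median log2 fold change over all genes tested was -0.07. All 3 LPS plus PGPC libraries lay above all 3 PGPC libraries for 1973 genes (15.8%) and below them for 1945 genes (15.6%). Of the genes called, 1118 higher and 717 lower ones had groups that did not overlap. The counts depend on the libraries in the fit: without LPS plus PGPC library 3 they were 900 higher and 466 lower, and with the alum libraries added to the fit 273 higher and 230 lower. Fold changes below are log2 values ± SE. Gene lists are described by their counts of higher and lower members, to be read against the 9.79% and 6.61% over all genes tested.

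**Figure D1:**
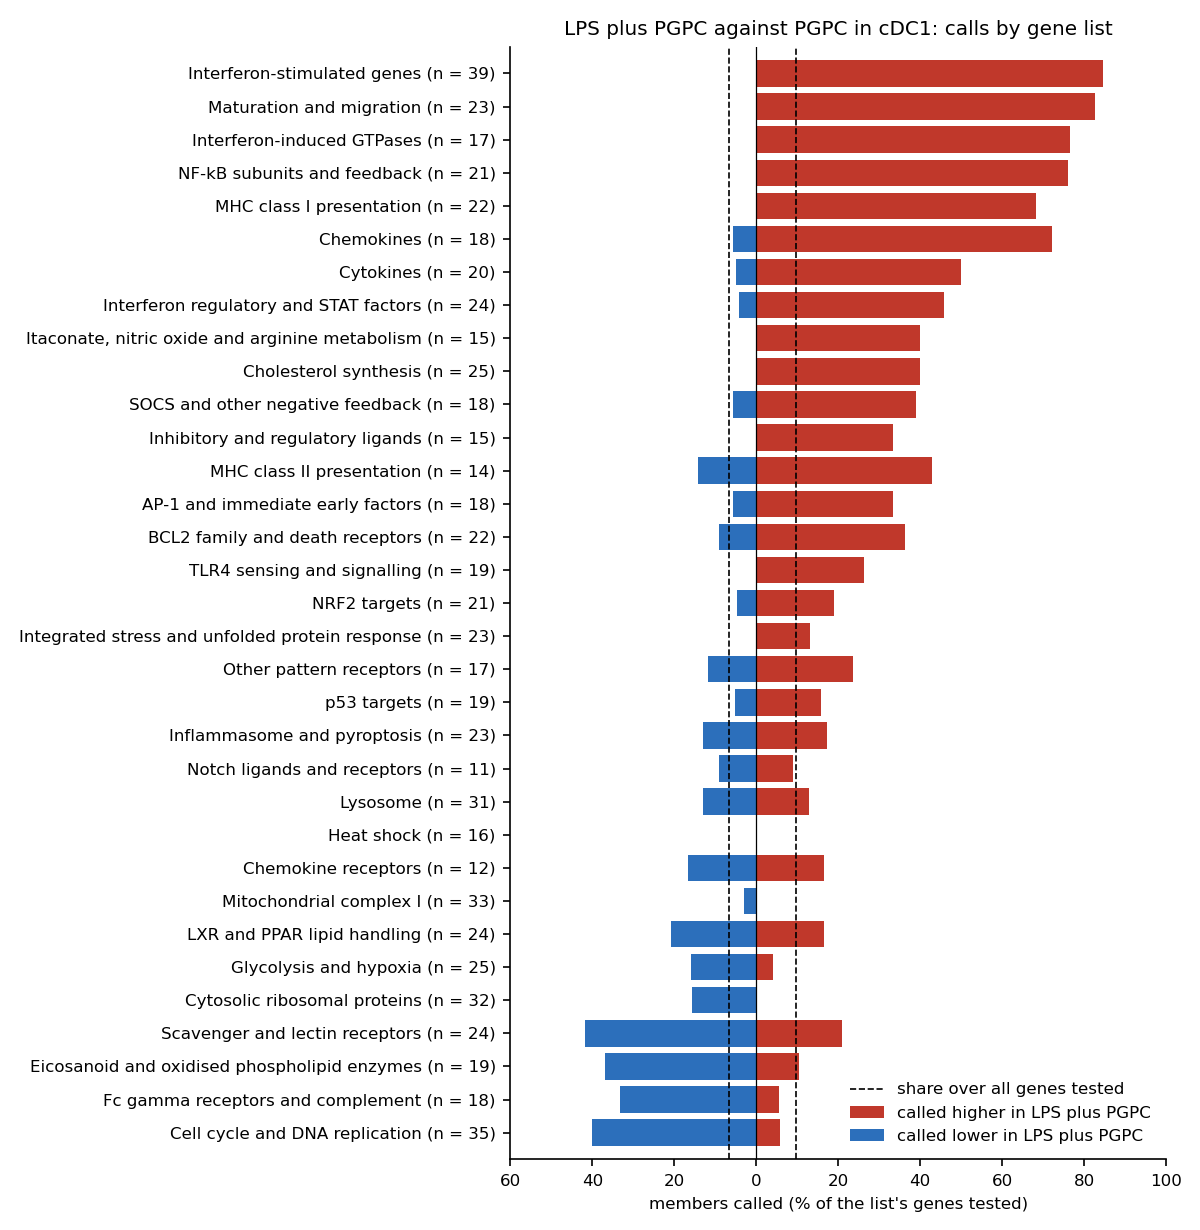
Share of the tested members of each of the 33 process lists (cell type marker lists are not drawn) that was called higher (red, to the right) or lower (blue, to the left) in LPS plus PGPC cDC1 than in PGPC cDC1, in percent, with the number tested beside each name; dashed lines mark 9.79% higher and 6.61% lower over all genes tested. Interferon-stimulated genes, maturation genes and interferon-induced GTPases had the highest shares of higher calls among these 33, and scavenger receptors and cell cycle genes the highest shares of lower calls.

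A minority of LPS sensing genes passed the test, all of them higher: 5 of 19 members of the TLR4 list tested, and 0 lower. Tlr4, the receptor, had 3.08, 9.65 and 15 CPM in LPS plus PGPC libraries, against 13.9, 3.25 and 7.95 CPM in PGPC libraries. The groups overlapped (log2 fold change 0.10 ± 0.56, adjusted p = 0.933). Cd14, which delivers LPS to the receptor, had 172, 159.9 and 162 CPM in LPS plus PGPC libraries, against 68.5, 13.3 and 53.3 CPM in PGPC libraries (log2 fold change 1.86 ± 0.57, adjusted p = 0.026), with no overlap. The Cd14 call was lost without LPS plus PGPC library 3 or PGPC library 2 (adjusted p between 0.0544 and 0.0837). Ticam1, which encodes the adaptor TRIF, was higher by 2.2 ± 0.45 on the log2 scale (SE, adjusted p = 0.00128). Traf3, a ubiquitin ligase on the TRIF branch, had 67.7, 77.4 and 112 CPM with LPS plus PGPC, against 14.6, 13.3 and 10.6 CPM with PGPC (log2 fold change 2.74 ± 0.35, adjusted p = 1.19e-05). Irak3, an inhibitory member of the IRAK family, was also higher (log2 fold change 2.64 ± 0.54, adjusted p = 0.00141). Traf6, which carries the MyD88 signal, was the fifth (log2 fold change 2.11 ± 0.57, adjusted p = 0.0128), and its call was lost without LPS plus PGPC library 2, LPS plus PGPC library 3 or PGPC library 1 (adjusted p between 0.0504 and 0.0599).

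NF-kB genes rose together: 16 of 21 members tested were higher and 0 lower, with a median log2 fold change of 2.23. Nfkbia encodes the inhibitor that holds NF-kB in the cytoplasm and is remade when the pathway fires. It had 1822, 775 and 774 CPM in LPS plus PGPC libraries, against 162, 103 and 111 CPM in PGPC libraries (log2 fold change 3.16 ± 0.46, adjusted p = 3.59e-05). Library 1 was the highest of the LPS plus PGPC group, and the groups stood far apart. Relb, the subunit of the alternative NF-kB pathway that marks mature dendritic cells, had 1691, 611 and 686 CPM with LPS plus PGPC and 20.2, 42.6 and 79.7 CPM with PGPC (log2 fold change 4.39 ± 0.51, adjusted p = 3.48e-06). Bcl3, a nuclear IkB protein, had 75.2, 138 and 104 CPM with LPS plus PGPC, against 0.552, 5.53 and 0.255 CPM with PGPC (log2 fold change 6.16 ± 0.76, adjusted p = 7.36e-06). Its PGPC values were near 0 in 2 libraries and 5.53 CPM in library 2. Traf1 and Traf2, adaptors of the tumour necrosis factor receptors, were higher by 4.11 and 2.99 on the log2 scale (adjusted p = 2.19e-05 and 3.24e-05).

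Promoters of 3 genes that rose are shown because they hold the letters that NF-kB and interferon-activated factors are known to bind. Each run is the 250 bases before the start in RefSeq (GRCm38.p6), 5′ to 3′ on the gene's own strand, with matches in capitals. Capitals mark the NF-kB consensus in Nfkbia, the NF-kB consensus and the interferon-stimulated response element core (ISRE core, GAAANNGAAA) in Cxcl10, and the ISRE core in Gbp2. Both strands were searched, so a match can read as the reverse complement. The Nfkbia run lies at chr12:55492648-55492897 on the minus strand, that of Cxcl10 at chr5:92348890-92349139 on the minus strand and that of Gbp2 at chr3:142620413-142620662 on the plus strand.
Nfkbia: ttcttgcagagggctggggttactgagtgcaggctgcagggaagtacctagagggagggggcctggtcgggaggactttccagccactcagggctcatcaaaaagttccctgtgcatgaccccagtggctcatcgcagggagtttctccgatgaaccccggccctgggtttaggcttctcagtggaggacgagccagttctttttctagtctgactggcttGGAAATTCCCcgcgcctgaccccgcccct
Cxcl10: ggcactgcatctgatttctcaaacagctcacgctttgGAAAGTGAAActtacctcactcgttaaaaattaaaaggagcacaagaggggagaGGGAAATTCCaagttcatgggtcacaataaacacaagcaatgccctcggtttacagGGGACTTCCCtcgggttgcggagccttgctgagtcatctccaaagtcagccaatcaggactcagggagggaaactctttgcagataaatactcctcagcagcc
Gbp2: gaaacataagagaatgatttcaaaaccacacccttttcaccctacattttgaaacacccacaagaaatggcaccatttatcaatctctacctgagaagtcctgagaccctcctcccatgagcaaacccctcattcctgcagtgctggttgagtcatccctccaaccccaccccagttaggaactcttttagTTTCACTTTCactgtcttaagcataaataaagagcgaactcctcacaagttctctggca
In Nfkbia the match ran from 29 to 20 bases before the start, and in Gbp2 from 59 to 50. Cxcl10 held an ISRE core from 213 to 204 bases before its start and NF-kB matches from 159 to 150 and from 103 to 94. No match overlapped another. Over the 9428 tested genes with a promoter in the table, 5.43% held the NF-kB consensus in these 250 bases and 3.57% the ISRE core. The NF-kB consensus was in 7 of the 14 higher NF-kB members with a promoter in the table and in 5 of 9 higher chemokines, but in only 1 of 6 higher cytokines. The ISRE core was in 11 of 24 higher interferon-stimulated genes and in 8 of 9 higher interferon-induced GTPases, some of which are neighbours of near-identical sequence. A match is a description of these letters and no evidence of binding.

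Cytokine genes were called higher for 10 of 20 members tested and lower for 1, with a median log2 fold change of 2.18 (1.79 with genes absent from a group at their bound). Il1b, which encodes the interleukin-1 beta precursor, had 201, 384 and 323 CPM in LPS plus PGPC libraries, against 19.1, 0 and 4.9 CPM in PGPC libraries (log2 fold change 5.15 ± 0.76, adjusted p = 5.19e-05). PGPC library 1 held most of the PGPC counts, still far under the lowest LPS plus PGPC value. Tnf, tumour necrosis factor, had 27, 85.6 and 86.4 CPM with LPS plus PGPC and 8.05, 7.15 and 7.76 CPM with PGPC (log2 fold change 3.11 ± 0.50, adjusted p = 0.000107), and LPS plus PGPC library 1 was the lowest of its group. Il12b, the p40 chain of interleukin-12, had 96.1, 33 and 45.1 CPM with LPS plus PGPC and 16.8, 3.9 and 1.65 CPM with PGPC (log2 fold change 2.92 ± 0.69, adjusted p = 0.0049). Those groups did not overlap, but with only these 6 libraries in the fit the Il12b call was lost (adjusted p = 0.0667). Il6, a cytokine of acute inflammation, had 2.05, 15 and 16.2 CPM with LPS plus PGPC and no count in any PGPC library, at least 25.8-fold higher against a floor of 3 counts per library. Il15, which sustains memory CD8 T cells and natural killer cells, was higher (log2 fold change 2.79 ± 0.64, adjusted p = 0.00378). Csf1, the macrophage growth factor, was the 1 lower member (log2 fold change -2.09 ± 0.48, adjusted p = 0.00352). Il12a, the p35 chain, had 0, 0.681 and 0 CPM with LPS plus PGPC, against 5.88, 3.58 and 2.1 CPM with PGPC (log2 fold change -3.97 ± 1.45, adjusted p = 0.0656), and DESeq2 (adjusted p = 0.0306) and voom (adjusted p = 0.0112) called it lower, as did the fit without LPS plus PGPC library 2 (adjusted p = 0.0161). Il10, an inhibitory cytokine, had 0.641, 1.59 and 0.654 CPM with LPS plus PGPC and 0, 0 and 2.35 CPM with PGPC (log2 fold change 0.18 ± 1.20, adjusted p = 0.945). Only PGPC library 3 held PGPC counts of Il10, and without it Il10 was called higher (log2 fold change 5.39, adjusted p = 0.0131). Il23a and Il27 had too few counts to be tested.

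Chemokine genes rose in 13 of 18 members tested and fell in 1, with a median log2 fold change of 4.27 (3.78 with absent genes at their bound). Ccl5, which attracts T cells and monocytes, had 1176, 2503 and 2490.1 CPM in LPS plus PGPC libraries, against 48.3, 84.5 and 64 CPM in PGPC libraries (log2 fold change 4.97 ± 0.47, adjusted p = 4.93e-07). Ccl22, a ligand of CCR4 on helper and regulatory T cells, had 1015, 1662 and 1992 CPM with LPS plus PGPC and 29.6, 44.5 and 87.6 CPM with PGPC (log2 fold change 4.85 ± 0.53, adjusted p = 2.45e-06). Cxcl16, which is both a chemokine and a scavenger receptor for oxidised lipids, had 1721, 1190.4 and 1432 CPM with LPS plus PGPC and 132, 94.9 and 127 CPM with PGPC (log2 fold change 3.61 ± 0.43, adjusted p = 4.8e-06). For all of these the lowest LPS plus PGPC library stood above the highest PGPC library. Cxcl10, a ligand of CXCR3 on effector T cells whose promoter is shown above, had 9.35, 92.6 and 35.9 CPM with LPS plus PGPC and no count with PGPC, at least 107-fold higher. Its LPS plus PGPC values varied widely, with library 2 the highest and library 1 the lowest. Cxcl14 was the 1 member that fell (log2 fold change -5.20 ± 0.69, adjusted p = 2.19e-05).

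Interferon-stimulated genes had the highest share of higher calls among the lists, with 33 of 39 members tested higher, 0 lower and a median log2 fold change of 4.34. Ifih1, which encodes the RNA sensor MDA5, had 93.3, 117 and 129 CPM in LPS plus PGPC libraries, against 9.23, 1.95 and 4.2 CPM in PGPC libraries (log2 fold change 4.38 ± 0.50, adjusted p = 2.87e-06). Zbp1, a sensor of Z-form nucleic acid, had 49.5, 69.8 and 48.5 CPM with LPS plus PGPC and 0.789, 0 and 1.34 CPM with PGPC (log2 fold change 5.98 ± 0.69, adjusted p = 3.17e-06). Herc6, the ligase that attaches ISG15 in mice, had 76.8, 79.9 and 77.1 CPM with LPS plus PGPC and 2.01, 2.6 and 6.05 CPM with PGPC (log2 fold change 4.42 ± 0.54, adjusted p = 6.58e-06). LPS plus PGPC libraries were close to each other for these genes and stood well above the PGPC libraries. Ifi44 was absent from the PGPC libraries and had 9.99, 31.4 and 17.3 CPM with LPS plus PGPC, at least 45.7-fold higher.

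Among interferon-induced GTPases, proteins that attack the membranes around intracellular pathogens, 13 of 17 tested were higher and 0 lower (median log2 fold change 3.52, and 3.05 with absent genes at their bound). Gbp2 had 754, 489 and 483 CPM in LPS plus PGPC libraries, against 4.14, 15.3 and 28.5 CPM in PGPC libraries (log2 fold change 5.17 ± 0.64, adjusted p = 7.36e-06). Gbp4 had 23.8, 26.7 and 12.7 CPM with LPS plus PGPC, against 2 counts in all with PGPC, a ratio of 450.0 (95% counting interval 124 to 3725). Tgtp1 was higher by 5.86 ± 0.88 on the log2 scale (SE, adjusted p = 0.000113). Guanylate-binding proteins and Tgtp1 have near-identical relatives, between which the authors' counting may have split reads.

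The factors upstream of these genes moved less evenly, with 11 of 24 interferon regulatory and STAT factors tested higher and 1 lower. Irf7, the factor that amplifies type I interferon, had 532, 656 and 369 CPM in LPS plus PGPC libraries, against 18.2, 10.1 and 19 CPM in PGPC libraries (log2 fold change 5.02 ± 0.66, adjusted p = 1.42e-05). The groups did not overlap. Stat3 (log2 fold change 2.06 ± 0.36, adjusted p = 0.00028) and Irf5 (log2 fold change 1.89 ± 0.37, adjusted p = 0.000879) were higher too. Irf1 had 238, 154 and 129 CPM with LPS plus PGPC and 85, 164 and 94.8 CPM with PGPC, which overlapped (log2 fold change 0.60 ± 0.40, adjusted p = 0.339). Ifnar2, a chain of the type I interferon receptor, was the 1 lower member (log2 fold change -1.36 ± 0.34, adjusted p = 0.00731), a call lost without LPS plus PGPC library 3 (adjusted p = 0.0518). The interferon beta gene had too few counts to be tested.

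**Figure D2:**
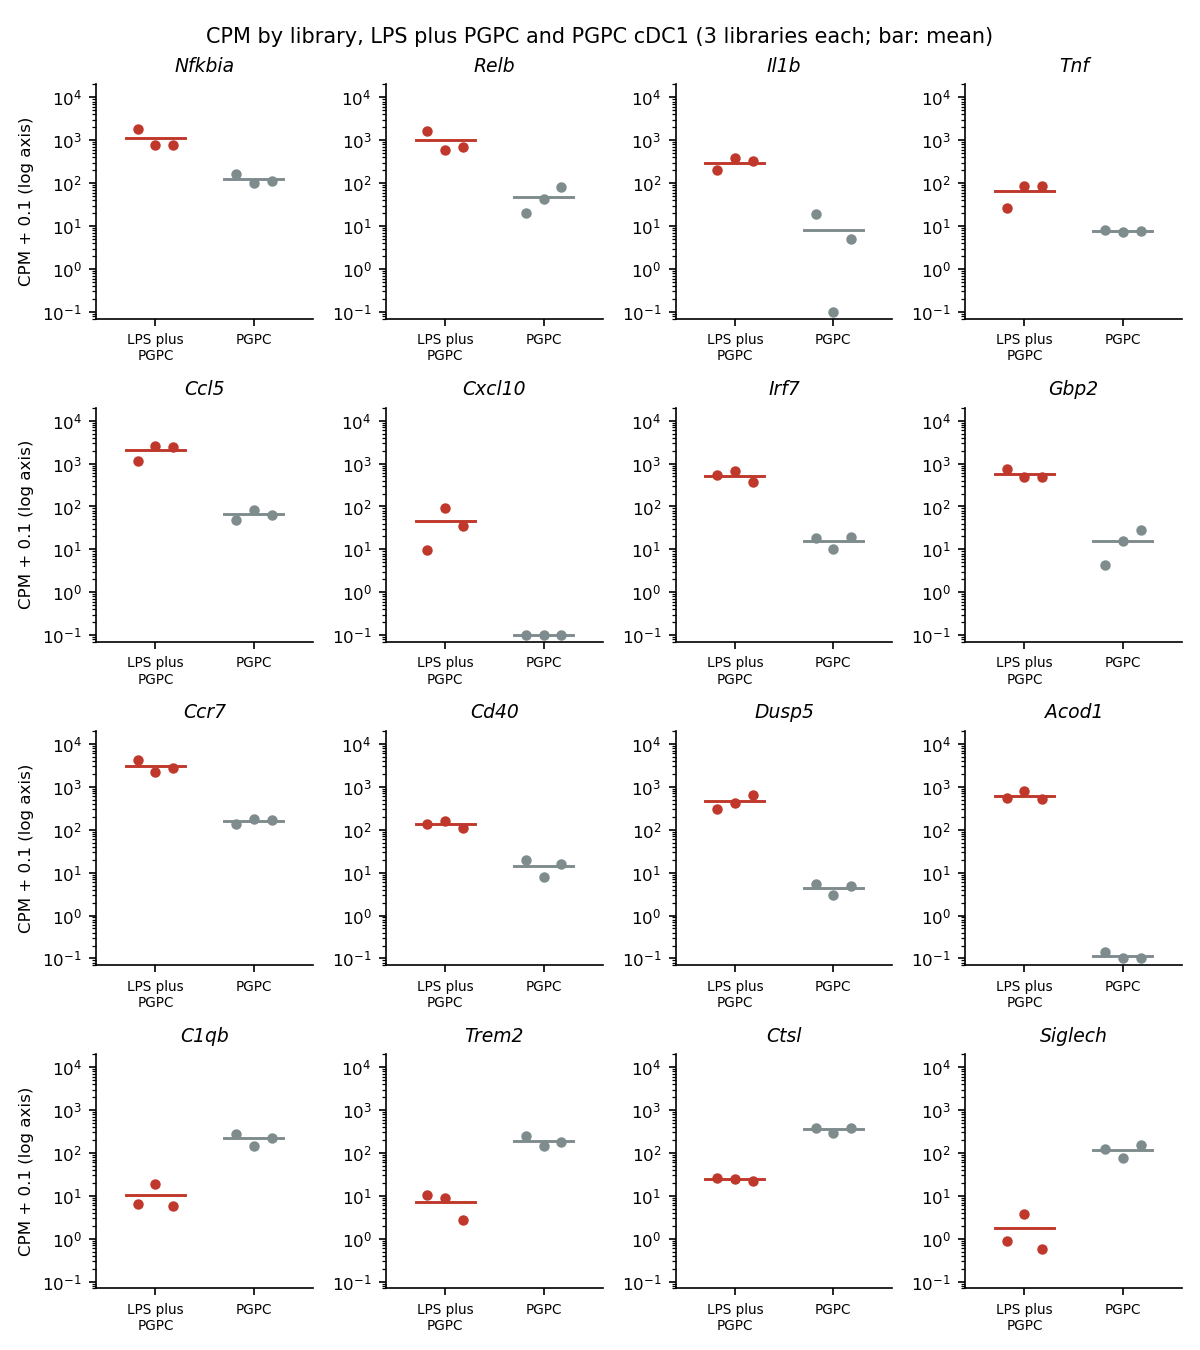
CPM plus 0.1 on a log axis for 16 genes, 1 point per library with the mean as a bar, LPS plus PGPC cDC1 on the left (red) and PGPC cDC1 on the right (grey). The first 12 genes lay higher in all 3 LPS plus PGPC libraries, and C1qb, Trem2, Ctsl and Siglech lay lower in all 3.

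Maturation and migration genes were higher in 19 of 23 members tested and lower in 0, with a median log2 fold change of 2.53. Ccr7, the receptor that guides mature dendritic cells to lymph nodes, had 4242, 2217 and 2714 CPM in LPS plus PGPC libraries, against 137, 175 and 169 CPM in PGPC libraries (log2 fold change 4.25 ± 0.60, adjusted p = 2.8e-05). Cd40, through which helper T cells license the dendritic cell, had 134, 163 and 110.4 CPM with LPS plus PGPC and 19.1, 7.8 and 15.7 CPM with PGPC (log2 fold change 3.23 ± 0.55, adjusted p = 0.000221). Cd86, a ligand of CD28 on T cells, had 42.8, 79.3 and 46.5 CPM with LPS plus PGPC and 17.2, 9.43 and 11.1 CPM with PGPC (log2 fold change 2.14 ± 0.47, adjusted p = 0.00231). The groups stood apart for all of these. Cd80, the other CD28 ligand, had 3.33, 3.06 and 4.3 CPM with LPS plus PGPC and 3.04, 1.3 and 1.08 CPM with PGPC and did not pass the test (log2 fold change 0.94 ± 0.72, adjusted p = 0.412). Marcksl1 and Tmem123, transcripts that mark mature dendritic cells, were higher by 4.39 and 3.42 on the log2 scale (adjusted p = 7.75e-07 and 2.3e-06).

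Inhibitory ligands were higher in 5 of 15 members tested and lower in 0. Cd274, which encodes PD-L1, had 94.3, 165 and 99.5 CPM in LPS plus PGPC libraries, against 9.79, 12.7 and 35.8 CPM in PGPC libraries (log2 fold change 2.61 ± 0.47, adjusted p = 0.000376). Cd200, whose receptor restrains myeloid cells, was higher (log2 fold change 2.45 ± 0.48, adjusted p = 0.000922), as were Pvr (log2 fold change 2.48 ± 0.51, adjusted p = 0.00141) and Nectin2 (log2 fold change 3.99 ± 0.84, adjusted p = 0.0019), ligands shared by an activating and an inhibitory receptor on T and natural killer cells. The fifth was Ido2, a tryptophan-degrading enzyme (log2 fold change 3.06 ± 0.92, adjusted p = 0.0231), whose call was lost without LPS plus PGPC library 2, LPS plus PGPC library 3 or PGPC library 1 (adjusted p between 0.0566 and 0.0608).

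MHC class I presentation was higher in 15 of 22 members tested and lower in 0 (median log2 fold change 1.66). H2-K1, a classical class I heavy chain, had 2795, 1450.1 and 1338 CPM in LPS plus PGPC libraries, against 352, 407 and 387 CPM in PGPC libraries (log2 fold change 2.28 ± 0.37, adjusted p = 0.000127). H2-Q7, a nonclassical heavy chain with near-identical neighbours, was higher by 4.29 (adjusted p = 8.96e-06). In the class II list 6 of 14 were higher and 2 lower. Cd74, the invariant chain, had 8604, 14123 and 12825 CPM with LPS plus PGPC and 2084, 2006 and 1964 CPM with PGPC (log2 fold change 2.55 ± 0.38, adjusted p = 4.76e-05). H2-Ab1, a class II beta chain, had 5257, 6383 and 4591 CPM with LPS plus PGPC and 876, 780.4 and 801 CPM with PGPC (log2 fold change 2.72 ± 0.50, adjusted p = 0.000502). Both genes had close PGPC values and LPS plus PGPC values several times higher. The 2 lower members were March1, the ligase that removes class II from the surface (log2 fold change -2.77 ± 0.63, adjusted p = 0.0034), and H2-DMa, a chain of the peptide exchange factor (log2 fold change -1.37 ± 0.44, adjusted p = 0.0337). The H2-DMa call was lost without LPS plus PGPC library 1, LPS plus PGPC library 3, PGPC library 1, PGPC library 2 or PGPC library 3 (adjusted p between 0.052 and 0.143).

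Among feedback regulators Dusp5, a nuclear phosphatase that switches off ERK, had the smallest p of the genes named here. Dusp5 had 305, 423 and 652 CPM in LPS plus PGPC libraries, against 5.41, 2.93 and 4.84 CPM in PGPC libraries (log2 fold change 6.66 ± 0.50, adjusted p = 1.2e-08). The lowest LPS plus PGPC library stood far above the highest PGPC library. Dusp1, which switches off p38 and JNK, had 489, 569 and 559 CPM with LPS plus PGPC and 39.2, 30.6 and 85.9 CPM with PGPC (log2 fold change 3.37 ± 0.49, adjusted p = 3.59e-05). Socs1 and Socs3, which block cytokine receptor signalling, were higher by 3.92 and 4.52 on the log2 scale (adjusted p = 9.52e-05 and 0.000249). In that list 7 of 18 were higher, and Pdcd4, a brake on translation, was the 1 lower (log2 fold change -3.55 ± 0.88, adjusted p = 0.00715), a call lost without PGPC library 2 (adjusted p = 0.0584). Of 18 AP-1 and immediate early factors tested, 6 were higher and 1 lower. Junb, an AP-1 subunit, had 949.7, 531 and 542 CPM with LPS plus PGPC and 128, 83.5 and 84.7 CPM with PGPC (log2 fold change 2.77 ± 0.42, adjusted p = 6.48e-05). Nr4a3, an orphan nuclear receptor induced on activation, had 234, 477 and 657 CPM with LPS plus PGPC and 2.01, 21.5 and 10.1 CPM with PGPC (log2 fold change 5.41 ± 0.83, adjusted p = 8.38e-05). Fos was the 1 lower member (log2 fold change -2.04 ± 0.46, adjusted p = 0.00317).

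The inflammasome list changed in part, with 4 of 23 members tested higher and 3 lower. Nlrp3, the sensor that couples membrane damage to caspase-1, had 4.1, 35.5 and 31.9 CPM in LPS plus PGPC libraries, against 5.01, 5.53 and 8.59 CPM in PGPC libraries (log2 fold change 1.89 ± 0.54, adjusted p = 0.0172). Library 1 of LPS plus PGPC lay below all PGPC libraries, so the groups overlapped. The Nlrp3 call was lost without LPS plus PGPC library 2, LPS plus PGPC library 3 or PGPC library 1 (adjusted p between 0.0595 and 0.0886). Casp1, the protease that matures interleukin-1 beta, had 4.74, 22.6 and 16.3 CPM with LPS plus PGPC and 9.0, 15 and 26.2 CPM with PGPC, which overlapped (log2 fold change -0.20 ± 0.56, adjusted p = 0.852). Gsdmd, the pore protein that caspase-1 cuts, had 322, 152 and 168 CPM with LPS plus PGPC and 137, 63.7 and 73.4 CPM with PGPC (log2 fold change 1.22 ± 0.47, adjusted p = 0.0791), and was called higher without PGPC library 1 (adjusted p = 0.0397) and with the replicate block (adjusted p = 0.0422). The other higher members were Casp4, which binds LPS inside the cell (log2 fold change 2.08 ± 0.64, adjusted p = 0.0275), Il1a (log2 fold change 4.01 ± 0.85, adjusted p = 0.00218) and Il1b. The 3 lower members were Txnip, a thioredoxin inhibitor (log2 fold change -2.63 ± 0.58, adjusted p = 0.00246), P2rx7, the receptor for extracellular ATP (log2 fold change -3.21 ± 0.85, adjusted p = 0.0113), and Gsdme, another gasdermin (log2 fold change -2.51 ± 0.73, adjusted p = 0.0192). The Casp4 call was lost without LPS plus PGPC library 2, LPS plus PGPC library 3 or PGPC library 2 (adjusted p between 0.0558 and 0.105), and the Gsdme call without LPS plus PGPC library 3 or PGPC library 2 (adjusted p between 0.0941 and 0.0976).

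Metabolic genes moved in different directions. Acod1 makes itaconate in activated myeloid cells. It had 560.1, 799.7 and 521 CPM in LPS plus PGPC libraries, against 1 count in the 3 PGPC libraries together, a ratio of 27459 (95% counting interval 4928 to 1084635). In its list 6 of 15 were higher and 0 lower (median log2 fold change 1.23, and 0.82 with absent genes at their bound), among them Ass1, which remakes arginine (log2 fold change 2.59 ± 0.44, adjusted p = 0.000213), and Gch1, which makes the cofactor of nitric oxide synthase (log2 fold change 2.44 ± 0.48, adjusted p = 0.00104). Cholesterol synthesis genes were higher in 10 of 25 members tested and lower in 0 (median log2 fold change 1.32). Insig1, a sterol-responsive regulator, had 111, 76.9 and 111 CPM with LPS plus PGPC and 19.6, 27.3 and 28.2 CPM with PGPC (log2 fold change 2.00 ± 0.40, adjusted p = 0.00125). Hmgcs1, an early enzyme of the pathway, was higher by 1.78 (adjusted p = 0.00897). Of 25 glycolysis and hypoxia genes tested, 1 was higher and 4 lower. The higher one was Pfkfb3, which makes the activator of phosphofructokinase, with 1520.4, 904 and 909.8 CPM with LPS plus PGPC and 53.2, 67 and 91.9 CPM with PGPC (log2 fold change 3.97 ± 0.49, adjusted p = 7.36e-06).

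Lipid handling genes were called in both directions, with 4 of 24 tested higher and 5 lower. Apoe, the lipoprotein of cholesterol export, had 153, 135 and 66.2 CPM in LPS plus PGPC libraries, against 2027, 1267 and 1769 CPM in PGPC libraries (log2 fold change -3.84 ± 0.63, adjusted p = 0.000142). Lpl, lipoprotein lipase, had 157, 96.9 and 167 CPM with LPS plus PGPC and 693, 409 and 879 CPM with PGPC (log2 fold change -2.24 ± 0.42, adjusted p = 0.000604). Both were lower in every LPS plus PGPC library. Acsl1, which activates fatty acids for lipid synthesis, was higher (log2 fold change 1.85 ± 0.36, adjusted p = 0.000774). Among eicosanoid and oxidised phospholipid enzymes, 7 of 19 tested were lower and 2 higher (median log2 fold change -0.79). Hpgd, which inactivates prostaglandins, had 1.03, 3.52 and 1.78 CPM with LPS plus PGPC and 49.6, 90.4 and 55.5 CPM with PGPC (log2 fold change -4.93 ± 0.57, adjusted p = 4.23e-06). Hpgds, the haematopoietic prostaglandin D synthase, and Ptgs1, cyclooxygenase-1, were lower by 3.67 and 3.28 (adjusted p = 0.00035 and 0.00107). Ptger4, a prostaglandin E2 receptor that aids dendritic cell migration, was higher (log2 fold change 2.67 ± 0.47, adjusted p = 0.000298).

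Of 21 NRF2 targets tested, the antioxidant genes that oxidised lipids are known to induce, 4 were higher and 1 lower. Gsr, glutathione reductase, had 238, 104 and 222 CPM in LPS plus PGPC libraries, against 30.9, 18.9 and 19.7 CPM in PGPC libraries (log2 fold change 3.01 ± 0.43, adjusted p = 3.52e-05). Slc7a11, the cystine importer, was higher (log2 fold change 2.91 ± 0.51, adjusted p = 0.000281). Hmox1, haem oxygenase, was the lower one, with 289.7, 396 and 392 CPM with LPS plus PGPC and 1299, 1090.2 and 1978 CPM with PGPC (log2 fold change -2.02 ± 0.43, adjusted p = 0.00189). Few stress genes passed the test. In the integrated stress and unfolded protein response 3 of 23 were higher, led by Edem1, which routes misfolded glycoproteins to degradation (log2 fold change 2.87 ± 0.50, adjusted p = 0.000262). None of 16 heat shock genes was called by edgeR, with 1 higher and 1 lower at an unadjusted p under 0.05 and 0 called by DESeq2 or by limma voom. Over the 13 lists with 0 lower calls, 7 members were lower at an unadjusted p under 0.05, 3 by DESeq2 and 4 by voom, and over the 7 lists with 0 higher calls the counts were 1, 0 and 0.

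Genes that promote and that block cell death were both among the higher calls. In the BCL2 and death receptor list 8 of 22 were higher and 2 lower. Bcl2l11, which encodes the death inducer BIM, had 101, 142 and 96.3 CPM in LPS plus PGPC libraries, against 22.2, 10.4 and 39.6 CPM in PGPC libraries (log2 fold change 2.21 ± 0.39, adjusted p = 0.00031). Bcl2a1d, a survival protein with near-identical copies, was higher by 4.12 (adjusted p = 7.91e-05). Cell cycle genes were lower in 14 of 35 members tested and higher in 2 (median log2 fold change -1.38). Cdc20, the activator of the anaphase ligase, had 7.69, 6.24 and 2.9 CPM with LPS plus PGPC and 46.5, 21.5 and 40.1 CPM with PGPC (log2 fold change -2.69 ± 0.59, adjusted p = 0.00245). Aurkb, a mitotic kinase, was lower by 2.55 (adjusted p = 0.00281). The 2 higher members were the D cyclins Ccnd2 (log2 fold change 1.70 ± 0.39, adjusted p = 0.00354) and Ccnd1 (log2 fold change 1.12 ± 0.37, adjusted p = 0.0363), the second of which lost its call without LPS plus PGPC library 2, PGPC library 2 or PGPC library 3 (adjusted p between 0.0834 and 0.167). Dll4, a Notch ligand, had 63.3, 30.6 and 25.7 CPM with LPS plus PGPC and 4.06, 0 and 0 CPM with PGPC (log2 fold change 4.57 ± 0.87, adjusted p = 0.000808). Of 32 ribosomal protein genes tested 5 were lower and 0 higher, and of 33 complex I genes 1 was lower and 0 higher. Further lists were called in both directions: Notch 1 higher and 1 lower of 11, p53 targets 3 higher and 1 lower of 19, chemokine receptors 2 higher and 2 lower of 12, and pattern receptors other than TLR4 4 higher and 2 lower of 17.

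Scavenger, lectin, Fc receptor and complement genes were called lower more often than higher. In the scavenger and lectin list 10 of 24 tested were lower and 5 higher (median log2 fold change -1.20). Trem2, a receptor for lipids and apoptotic cells, had 10.1, 8.62 and 2.62 CPM in LPS plus PGPC libraries, against 252, 146 and 177 CPM in PGPC libraries (log2 fold change -4.75 ± 0.56, adjusted p = 3.48e-06). Clec12a, an inhibitory lectin that binds uric acid crystals, had 9.35, 17.2 and 12.3 CPM with LPS plus PGPC and 109, 90.7 and 135 CPM with PGPC (log2 fold change -3.11 ± 0.48, adjusted p = 6.89e-05). Cd300lf, a phosphatidylserine receptor, had 0.769, 1.7 and 0.467 CPM with LPS plus PGPC and 14.4, 9.75 and 28.1 CPM with PGPC (log2 fold change -4.15 ± 0.67, adjusted p = 0.000113). The groups did not overlap for these. Marco, a scavenger receptor, went the other way: it had 21, 20.9 and 15.4 CPM with LPS plus PGPC and no count with PGPC, at least 44.6-fold higher. C1qb, a chain of the first complement component, had 6.28, 19 and 5.8 CPM with LPS plus PGPC and 281, 146 and 225 CPM with PGPC (log2 fold change -4.39 ± 0.51, adjusted p = 3.48e-06). Fcgr3, a low-affinity IgG receptor, had 0.769, 1.7 and 0 CPM with LPS plus PGPC and 47.6, 31.5 and 66.6 CPM with PGPC (log2 fold change -5.88 ± 0.82, adjusted p = 2.67e-05). In that list 6 of 18 were lower and 1 higher, which was Cfb, complement factor B (log2 fold change 2.78 ± 0.87, adjusted p = 0.031), a call lost with DESeq2 (adjusted p = 0.0837) and without LPS plus PGPC library 1, LPS plus PGPC library 2 or PGPC library 2 (adjusted p between 0.0538 and 0.0813). Lysosome genes split, with 4 of 31 higher and 4 lower. The lower ones included cathepsin L, Ctsl, with 26.4, 24.9 and 22 CPM with LPS plus PGPC and 392, 293 and 384 CPM with PGPC (log2 fold change -3.87 ± 0.46, adjusted p = 4.12e-06), and cathepsin D, Ctsd (log2 fold change -2.17 ± 0.42, adjusted p = 0.000832).

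Marker lists of other cell types moved with these falls. Of 17 monocyte or macrophage markers tested, 12 were lower and 1, Cd14, was higher, and their summed level was 1151, 1149 and 809 CPM in LPS plus PGPC libraries, against 7254, 5676 and 7833 CPM in PGPC libraries. That list shares C1qa, C1qb, C1qc and Apoe with the falls above. None of its markers was at 0 throughout either group. Lyz2, lysozyme M, had 319.6, 445 and 309.6 CPM with LPS plus PGPC and 3380.3, 2986 and 3876 CPM with PGPC (log2 fold change -3.25 ± 0.48, adjusted p = 4.08e-05). Of 14 plasmacytoid dendritic cell markers tested 8 were lower and 0 higher, with sums of 298, 439 and 367 CPM with LPS plus PGPC and 604, 563 and 692 CPM with PGPC. Siglech, the lectin that defines them, had 0.769, 3.75 and 0.467 CPM with LPS plus PGPC and 123, 77.7 and 151 CPM with PGPC (log2 fold change -6.13 ± 0.79, adjusted p = 1.87e-05), while their marker Klk1 had no count in either group. Of 11 neutrophil or precursor markers tested 9 were lower and 0 higher, with sums of 26.5, 125 and 49.7 CPM with LPS plus PGPC and 676, 359.8 and 1354 CPM with PGPC. Elane was at 0 in both groups and Mpo and Ctsg were at 0 with LPS plus PGPC only, and DESeq2 did not call Mpo (adjusted p = 0.149). The neutrophil sums in cDC1 with nothing added were 67.8, 261 and 110 CPM. They lay below every PGPC library and overlapped LPS plus PGPC. Of 9 B cell markers tested 3 were lower and 0 higher, with sums of 244, 204 and 192 CPM with LPS plus PGPC and 716, 308 and 431 CPM with PGPC. Vpreb3 and Igll1 were at 0 in both groups, and Pax5 with PGPC only. In bulk libraries fewer cells of a type and less RNA per cell cannot be told apart, and the part of other cells in the falls above was not tested.

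Several mast cell and basophil genes were seen with PGPC and hardly at all with LPS plus PGPC. Of 7 tested 4 were lower and 1 higher, with sums of 34, 134 and 71.7 CPM in LPS plus PGPC libraries and 154, 194 and 154 CPM in PGPC libraries. Prss34, a basophil protease, had 0, 0.113 and 0 CPM with LPS plus PGPC and 36.1, 25.7 and 45.4 CPM with PGPC, lower by a ratio of 1056 (95% counting interval 189 to 41727). Cpa3, a mast cell carboxypeptidase, had 0, 0 and 0.0935 CPM with LPS plus PGPC and 27.6, 10.7 and 7.25 CPM with PGPC, lower by a ratio of 524 (95% counting interval 93.8 to 20729). The other lower members were Mcpt8 and Fcer1a. The Mcpt8 call was lost without LPS plus PGPC library 1, LPS plus PGPC library 2 or LPS plus PGPC library 3 (adjusted p between 0.102 and 0.122) and the Fcer1a call without LPS plus PGPC library 2 or LPS plus PGPC library 3 (adjusted p between 0.0519 and 0.0568), which leaves 2 lower members, and DESeq2 called neither (adjusted p = 0.344 and 0.369). In cDC1 with nothing added, Prss34 had 0, 0 and 0 CPM and Cpa3 0, 0.252 and 0 CPM. The sums of the whole list there were 97, 131 and 172 CPM, which overlapped the sums with PGPC. Those untreated sums came almost wholly from members other than Prss34 and Cpa3. The list includes Kit, which is also counted below among the markers shared by dendritic cells, so the sum is not particular to mast cells or basophils. The 1 higher member was Hdc, the enzyme that makes histamine and which activated myeloid cells also express, with 7.05, 23.6 and 11.6 CPM with LPS plus PGPC and 0, 3.25 and 0 CPM with PGPC (log2 fold change 4.90 ± 1.19, adjusted p = 0.00636). The Hdc call was lost with DESeq2 (adjusted p = 0.0691), with only these 6 libraries (0.219) and with all 36 (0.139). Cma1, Tpsb2 and Mcpt4 were at 0 in both groups, and Mcpt8, Fcer1a, Ms4a2 and Il4 with LPS plus PGPC.

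The cDC1 label was checked against 18 markers, of which 1 was higher and 5 lower with LPS plus PGPC, with sums of 1125, 954 and 743 CPM with LPS plus PGPC and 1583, 1586 and 1451 CPM with PGPC. Xcr1, the chemokine receptor that defines cDC1, was close to absent in both groups, with 1.41, 0.908 and 0.374 CPM with LPS plus PGPC and 0.0789, 1.63 and 0 CPM with PGPC. Clec9a, their receptor for dead cells, had 0.128, 9.08 and 1.59 CPM with LPS plus PGPC and 80.3, 59.5 and 76.2 CPM with PGPC (log2 fold change -4.31 ± 0.97, adjusted p = 0.00422). Tlr3, the sensor of double-stranded RNA, was lower as well (log2 fold change -3.98 ± 1.00, adjusted p = 0.00765). Batf3 had 45, 23.8 and 22.8 CPM with LPS plus PGPC and 28.8, 12.4 and 13.4 CPM with PGPC (log2 fold change 0.74 ± 0.61, adjusted p = 0.45). In cDC2, Clec9a had 0, 0 and 0.227 CPM with LPS plus PGPC and 0 and 0 CPM with PGPC. Irf8, the lineage factor, had 681, 196 and 217 CPM with LPS plus PGPC and 648, 583 and 496 CPM with PGPC (log2 fold change -0.66 ± 0.42, adjusted p = 0.311). The voom test called Irf8 lower (adjusted p = 0.0264), and so did the fit without LPS plus PGPC library 1 (adjusted p = 0.0181). In cDC2, Irf8 had 122, 104 and 91.7 CPM with LPS plus PGPC and 97.9 and 129 CPM with PGPC. Zbtb46, a factor of conventional dendritic cells, was higher (log2 fold change 2.65 ± 0.43, adjusted p = 0.000134). Sirpa, a cDC2 marker, was present in both groups, with 618, 380.4 and 333 CPM with LPS plus PGPC and 161, 122 and 137 CPM with PGPC (log2 fold change 1.67 ± 0.46, adjusted p = 0.0153). In cDC2, Sirpa had 1772, 761 and 647 CPM with LPS plus PGPC and 1207 and 1208 CPM with PGPC. The Sirpa call was lost without LPS plus PGPC library 1 (adjusted p = 0.0508). Summed cDC1 markers in cDC2 were 1521, 982 and 784 CPM with LPS plus PGPC and 420 and 585 CPM with PGPC. Summed cDC2 markers in cDC1 were 2660, 1667 and 1605 CPM with LPS plus PGPC and 751, 589 and 887 CPM with PGPC. In cDC2 they were 2851, 1466 and 1252 CPM with LPS plus PGPC and 1742 and 1882 CPM with PGPC. Both sums separated cDC1 from cDC2 with PGPC, and neither did with LPS plus PGPC. Relb, whose rise in cDC1 is given above with the NF-kB genes, is in the cDC2 list. Its CPM is part of the summed cDC2 markers, and the separation without it was not tested. Of 15 cDC2 markers tested 4 were higher and 2 lower, of 13 markers shared by dendritic cells 6 were higher and 0 lower, of 3 T or natural killer cell markers 1 was higher and 1 lower, and of 3 erythroid markers 0 were called. The list shared by dendritic cells overlaps lists already counted: it includes Zbtb46 and members of the class II list, among them Cd74 and H2-Ab1.

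By size alone, the 15 genes with the largest rise among those called, without overlap and with at least 5 CPM in the higher group included Acod1, Cxcl10, Ifi44 and Marco. Of the 15, all but Acod1 had no count in any PGPC library. Parp12, an antiviral ADP-ribosyltransferase, had 76.9, 45.6 and 113 CPM in LPS plus PGPC libraries, at least 183-fold higher. Fgfr3, a fibroblast growth factor receptor, had 29.7, 70.8 and 54.3 CPM with LPS plus PGPC, at least 121-fold higher. Susd2 (15.8, 61.7 and 27.3 CPM with LPS plus PGPC), Kcnh3 (47, 30.6 and 11.1 CPM), Sprr2d (10.6, 44.8 and 29.9 CPM) and Arhgap28 (43.1, 15.1 and 24.7 CPM) came next, at least 81.6-, 69.1-, 66.5- and 64.5-fold higher. Rasip1, Ifit1bl1, Rab30, Plat and Dapk3 made up the rest, at least 27.6- to 62.4-fold higher. The 15 genes with the largest fall included Prss34 and Mmp8, a neutrophil collagenase with 0, 0.113 and 0 CPM with LPS plus PGPC and 9.43, 49.1 and 11.9 CPM with PGPC. Tet1, an eraser of DNA methylation, had no count with LPS plus PGPC and 21.1, 5.2 and 13.8 CPM with PGPC, at least 39.9-fold lower. P2ry12, the ADP receptor known from microglia, had no count with LPS plus PGPC and 7.69, 9.1 and 7.06 CPM with PGPC, at least 23.7-fold lower. Slit2, Aatk, Cd200r3, Zfyve28, Myl10, Mgll and Dpep1 had no count with LPS plus PGPC, at least 15.9- to 28.1-fold lower. Cpa3, Slc14a1, Pcp4l1 and Cd59a had 1 or 2 counts there.

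The same LPS contrast without the lipid, cDC1 with LPS against cDC1 with nothing added, used 6 other libraries. It called 2235 genes (17.9%), 1067 higher (8.56%) and 1168 lower (9.37%). Of the genes called with PGPC, 935 were also called without it, 45.7% of one list and 41.8% of the other, 921 in the same direction and 14 in the opposite one. The difference between the 2 LPS effects was tested for each gene as an interaction, and 161 genes were called (1.29%), 114 with a difference above 0 (0.915%) and 47 below 0 (0.377%). That count depends on single libraries, falling to 33 without LPS library 1, 77 without LPS library 2 and 53 without LPS plus PGPC library 3, and reaching 351 without PGPC library 1 and 251 without PGPC library 2.

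**Figure D3:**
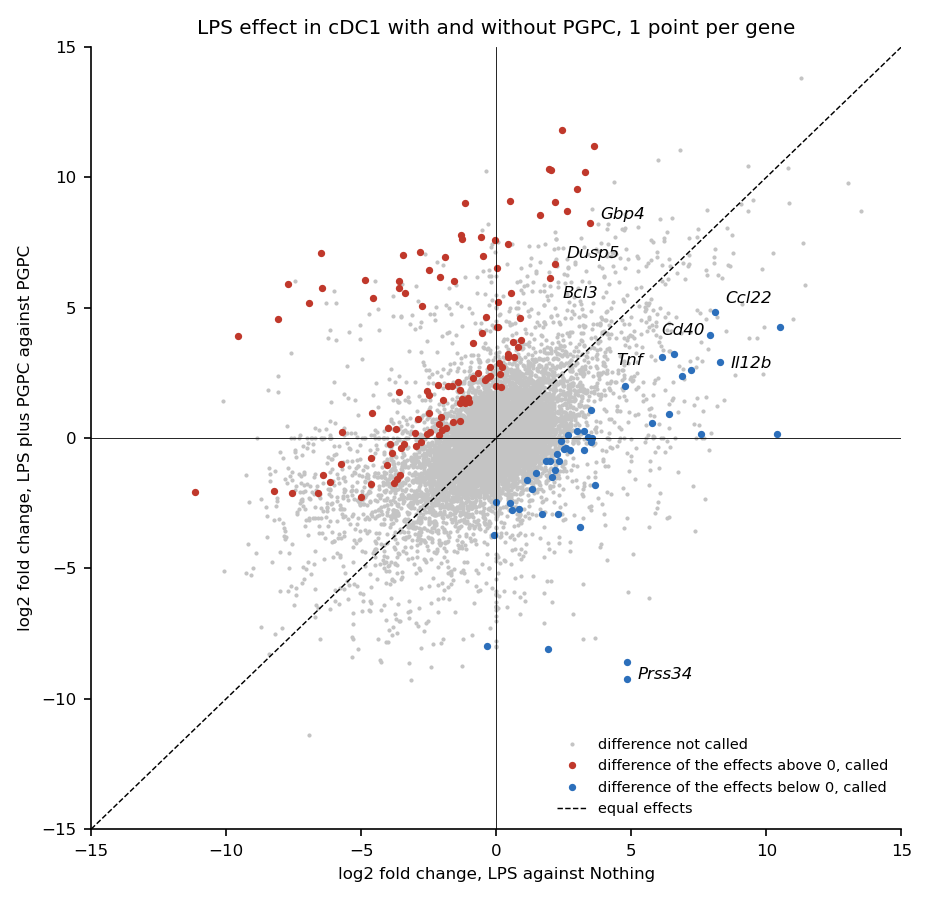
Each point is a gene, with the log2 fold change of LPS against nothing in cDC1 on the horizontal axis and that of LPS plus PGPC against PGPC in cDC1 on the vertical axis; the dashed line marks equal effects. Red and blue points are the 114 and 47 genes whose effects differed at an adjusted p under 0.05. Dusp5, Bcl3 and Gbp4 lie above the dashed line, and Ccl22, Cd40, Tnf, Il12b and Prss34 lie below it.

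Dusp5 had the smallest adjusted p among the named genes. Its log2 fold change was 6.66 with PGPC and 2.16 without, a difference of 4.50 ± 0.59 (SE, adjusted p = 0.000678). The levels behind it were 305, 423 and 652 CPM with LPS plus PGPC, 5.41, 2.93 and 4.84 CPM with PGPC, 112, 62.6 and 191 CPM with LPS and 18, 26.9 and 35.8 CPM with nothing. PGPC cells lay below untreated cells, and LPS plus PGPC cells lay above LPS cells. The call stayed under 0.05 in each of the 12 fits that left out 1 library, with adjusted p between 0.000155 and 0.00629. Bcl3 had a difference of 4.17 ± 0.92 (SE, adjusted p = 0.022), with 94.2, 87.4 and 135 CPM with LPS and 41.2, 20.8 and 19.9 CPM with nothing, so that LPS plus PGPC overlapped LPS while PGPC lay below untreated cells. Gbp4 had a difference called at adjusted p = 0.0178, with 30.7, 37.2 and 37.9 CPM with LPS and 6.01, 2.52 and 2.42 CPM with nothing. Every LPS plus PGPC library lay below every LPS library for Gbp4, and every PGPC library lay below every untreated one. Bcl3 was lost without LPS library 1, LPS library 2, LPS plus PGPC library 3 or untreated library 1 (adjusted p between 0.0509 and 0.0785), and Gbp4 without LPS library 1 (adjusted p = 0.0587). The voom test did not call Gbp4 (adjusted p = 0.282).

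For 4 activation genes among those named the rise was smaller with the lipid. Ccl22 rose by 4.85 with PGPC and by 8.11 without (difference -3.27 ± 0.68, SE, adjusted p = 0.0175). It had 2379.6, 1347 and 1344 CPM with LPS and 3.43, 2.52 and 11.3 CPM with nothing, so the LPS levels overlapped those of LPS plus PGPC while PGPC alone stood above nothing. Cd40 rose by 3.23 with PGPC and by 6.58 without (difference -3.34 ± 0.76, adjusted p = 0.0246), with 623, 409.8 and 368 CPM with LPS and 2.57, 5.43 and 5.59 CPM with nothing. Here every LPS library lay above every LPS plus PGPC library. Tnf rose by 3.11 with PGPC and by 6.15 without (difference -3.04 ± 0.70, adjusted p = 0.0275), with 249, 142 and 151 CPM with LPS and 1.72, 1.39 and 4.08 CPM with nothing. Il12b rose by 2.92 with PGPC and by 8.27 without (difference -5.35 ± 1.21, adjusted p = 0.0242), with 107, 48.4 and 57 CPM with LPS and 0.858, 0 and 0.302 CPM with nothing. Leaving out a single library ended each of these calls. Ccl22 was lost without LPS library 1 (adjusted p = 0.0652). Cd40 was lost without LPS library 1, LPS library 2, LPS plus PGPC library 3, untreated library 1 or untreated library 2 (adjusted p between 0.0513 and 0.0857). Tnf was lost without LPS library 1, LPS library 2, LPS plus PGPC library 3, untreated library 1 or untreated library 2 (adjusted p between 0.0519 and 0.0998). Il12b was lost without LPS library 1, LPS plus PGPC library 3, untreated library 2, untreated library 3 or PGPC library 1 (adjusted p between 0.0578 and 0.095). Of the 4, the voom test called Ccl22 only, with adjusted p = 0.0792 for Cd40, 0.123 for Tnf and 0.139 for Il12b.

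Other differences came from genes at or near 0 in at least 1 of the 4 groups. Prss34 had the lowest difference (adjusted p = 0.00375), with 0.535, 1.18 and 0.294 CPM with LPS and no count with nothing added, and PGPC alone held nearly all of its counts. Parp12 had 75.2, 60.2 and 104 CPM with LPS and 39.5, 7.83 and 2.57 CPM with nothing, against no count with PGPC (adjusted p = 0.00378). Arhgap28 had 12.2, 16.5 and 23.5 CPM with LPS and 5.15, 2.15 and 6.35 CPM with nothing (adjusted p = 0.00377), and Fgfr3 had 14.1, 20.7 and 46.1 CPM with LPS and 0, 2.9 and 2.42 CPM with nothing (adjusted p = 0.00661). The voom test called none of these last 3 (adjusted p = 0.121, 0.0746 and 0.127). For Il1b the rise was 5.15 with PGPC and 9.11 without, and the difference did not pass (-3.96 ± 1.15, adjusted p = 0.086). For Il1b the LPS libraries had 278, 194 and 227 CPM and the libraries with nothing 0.858, 0.126 and 0.604 CPM.

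**Figure D4:**
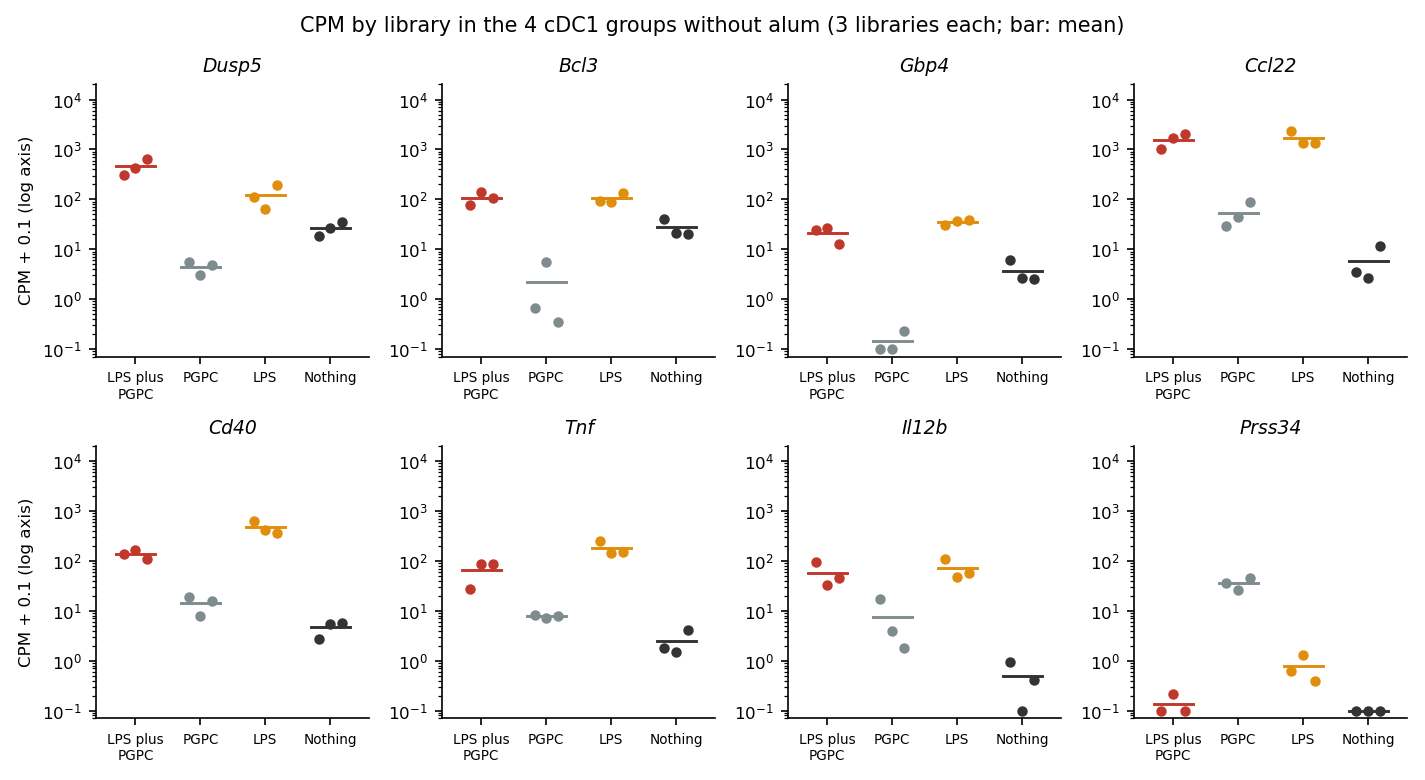
CPM plus 0.1 on a log axis for 8 genes in the 4 cDC1 groups without alum, 1 point per library with the mean as a bar: LPS plus PGPC (red), PGPC (grey), LPS (orange) and nothing added (black). PGPC libraries were the lowest for Dusp5, Bcl3 and Gbp4, stood above libraries with nothing added for Ccl22, Cd40, Tnf and Il12b, and held nearly all Prss34.

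The same contrast in cDC2, LPS plus PGPC against PGPC, called 827 genes (6.64%), 552 higher (4.43%) and 275 lower (2.21%). It had 2 PGPC libraries in the fit. The LPS effect in cDC1 minus that in cDC2 was called for 248 genes (1.99%), 107 above 0 (0.859%) and 141 below 0 (1.13%). The count fell to 33 without cDC2 PGPC library 4 and to 54 without cDC2 PGPC library 5, to 122 without cDC1 LPS plus PGPC library 3 and to 127 without cDC2 LPS plus PGPC library 5.

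Ctsl and Cd300lf fell in cDC1 and did not fall in cDC2. Ctsl had 321, 315 and 258 CPM in cDC2 with LPS plus PGPC and 241 and 274 CPM in cDC2 with PGPC, and its difference was -4.08 ± 0.66 (SE, adjusted p = 0.00222). Cd300lf had 127, 68 and 54.8 CPM in cDC2 with LPS plus PGPC and 6.56 and 5.16 CPM in cDC2 with PGPC, so it went in opposite directions in the 2 cell types (difference -7.93 ± 1.06, adjusted p = 0.00075). Both calls stayed under 0.05 whichever library was left out. C1qb had 262, 236 and 243 CPM in cDC2 with LPS plus PGPC and 319 and 359.6 CPM in cDC2 with PGPC (difference -3.94 ± 0.72, adjusted p = 0.00528). Clec12a had 80.9, 72.9 and 45.3 CPM in cDC2 with LPS plus PGPC and 29 and 48.2 CPM in cDC2 with PGPC (difference -3.92 ± 0.72, adjusted p = 0.00542). Without cDC2 PGPC library 4 the calls of C1qb (adjusted p = 0.0725) and Clec12a (adjusted p = 0.0918) were lost. The summed monocyte or macrophage markers were 10925, 5152 and 4289 CPM in cDC2 with LPS plus PGPC and 8323 and 10759.7 CPM in cDC2 with PGPC, and their part in these differences was not tested. In the other direction, Arhgap28 had 33.5, 26.5 and 13 CPM in cDC2 with LPS plus PGPC and 19.1 and 8.6 CPM in cDC2 with PGPC (adjusted p = 0.000877), while cDC1 with PGPC had none. Il1b, Ccr7 and Cd40 did not differ at this threshold between cDC1 and cDC2 (differences -3.12 ± 1.49, 0.70 ± 0.78 and -1.92 ± 0.96, SE).

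**Figure D5:**
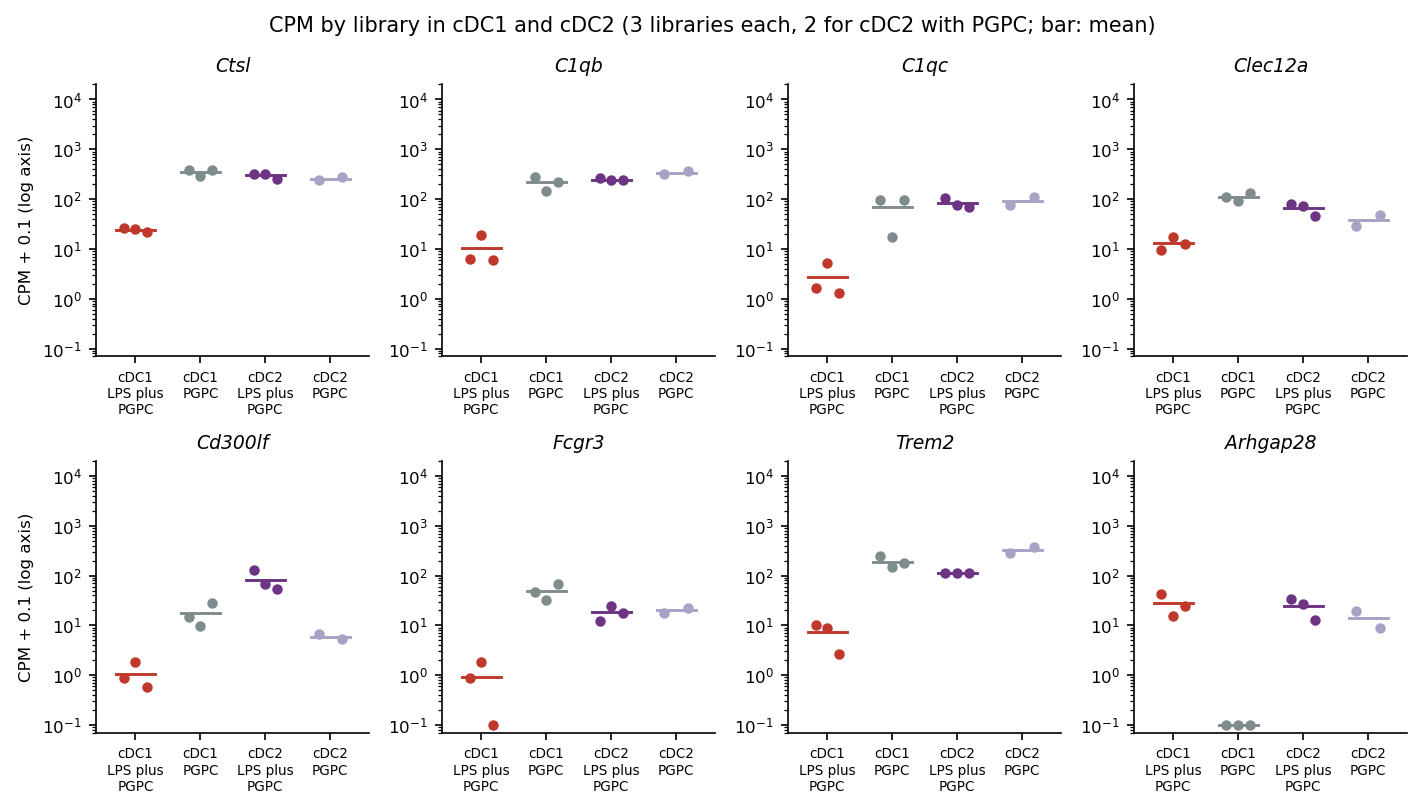
CPM plus 0.1 on a log axis for 8 genes, 1 point per library with the mean as a bar: cDC1 with LPS plus PGPC (red), cDC1 with PGPC (grey), cDC2 with LPS plus PGPC (purple) and cDC2 with PGPC (lilac, 2 libraries). Ctsl, C1qb, C1qc, Clec12a and Trem2 lay lowest in cDC1 with LPS plus PGPC, Cd300lf moved in opposite directions, and Arhgap28 had no count in cDC1 with PGPC.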

How the data were processed

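RNA from bulk cells was sequenced after Smart-Seq2 amplification, which does not record strand, so that a gene and an antisense partner cannot be told apart. The authors deposited expected counts per gene symbol (53299 symbols, 36 libraries) from RSEM on GRCm38, after bcl2fastq 2.2, per the submitters' processing notes. No source used here gives the RSEM version, the aligner or the annotation release. RSEM divides reads among near-identical genes, and 21% of the values above 0 were not whole, so the estimated counts were rounded. Totals per library are given in the report. Amplified reads carry no molecular identifiers, so counting intervals and floors (95%, 3 counts) cover counting error only.

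Groups came from the labels. The main fit was edgeR 4.0.16 (quasi-likelihood, R 4.3.3, limma 3.58.1) on 23 libraries without alum and 8 group means, with TMM scaling, genes of at least 10 counts in enough libraries and 15 in all, and Benjamini-Hochberg adjustment over 12463 genes. The biological coefficient of variation was 0.545. A cDC2 PGPC library of 3805 counts was left out. The fit was tested on simulated counts first. DESeq2 1.42.0, voom and other library sets, filters and scalings were alternatives. The members and gene lists were chosen with earlier results of these data known. Genes named were the 15 largest rises and 15 largest falls that were called, did not overlap and reached 5 CPM, the 4 smallest p of each of 33 process and 10 marker lists, a fixed panel, and the 5 largest and 5 smallest differences of each interaction. Casp4, Ccnd1, Cfb, Csf1, Cxcl14, Fos, Gsdme, H2-DMa, Ido2, Ifnar2, March1 and Pdcd4 were named after their values were seen, as were markers at 0. A few genes that the rule would name are not reported here. Promoters came from RefSeq (27025 genes). Beyond the word biological, nothing says whether replicates were separate cultures or animals, so p-values measure a spread between samples that may be technical. In the main fit that spread was estimated over the 8 groups and 23 libraries together, not from the compared groups alone.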

Additional observations from a re-analysis of the deposited data

Results flagged for a closer look

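The difference between 2 LPS effects passed its own test, the interaction in the edgeR quasi-likelihood fit, for the genes below. With 18 named genes for the lipid and 28 for the cell type, p-values are adjusted over all 12463 genes, and the explanation of each was not tested.

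Between cDC1 with and without the lipid, the LPS effect was larger with PGPC for Dusp5 (adjusted p = 0.000678), Arhgap28 (0.00377), Parp12 (0.00378), Fgfr3 (0.00661), Dapk3 (0.00884), Rasip1 (0.0154), Rab30 (0.0156), Gbp4 (0.0178), Bcl3 (0.022) and Ifit1bl1 (0.0467). Dapk3, a death-associated kinase, had 16.8, 7.38 and 11.3 CPM with LPS plus PGPC and no count with PGPC, against 11.2, 2.95 and 7.93 CPM with LPS and 13.7, 0.379 and 3.93 CPM with nothing. Rab30, a Golgi GTPase, had 13.6, 23 and 12.3 CPM with LPS plus PGPC and no count with PGPC, against 24.2, 28.9 and 18.5 CPM with LPS and 0.858, 4.04 and 3.17 CPM with nothing. The difference ran the other way for Prss34 (adjusted p = 0.00375), Ccl22 (0.0175), Cd200r3 (0.0195), Cpa3 (0.0195), Il12b (0.0242), Cd40 (0.0246), Tnf (0.0275) and Mgll (0.0392). Of the 18, 7 stayed called whichever library was left out (Dusp5, Arhgap28, Parp12, Fgfr3, Dapk3, Rasip1 and Prss34), and of these 7 the voom test called Dusp5 and Prss34. Ifit1bl1 was lost in 8 of the 12 fits that left out 1 library, and its fitted difference was 3.19 without untreated library 3 (adjusted p = 0.464), against 6.93 with all libraries. Mgll was lost in 6 of 12. Without LPS library 1, Rab30 (adjusted p = 0.0559), Cpa3 (0.245) and Cd200r3 (0.158) were lost. Without LPS plus PGPC library 3, Cpa3 (0.0507) and Cd200r3 (0.0519) were lost.

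Between cDC1 and cDC2 with the lipid, the LPS effect was above that of cDC2 for Arhgap28 (adjusted p = 0.000877), Rab30 (0.00653), Rasip1 (0.00985), Kcnh3 (0.0145), Gsr (0.0249), Traf3 (0.0302), Acod1 (0.0303), Junb (0.038), Parp12 (0.0395) and Bcl3 (0.0458). Acod1 had 5688, 1922 and 1264 CPM in cDC2 with LPS plus PGPC and 24.1 and 22.4 CPM in cDC2 with PGPC, against 1 count over the 3 cDC1 libraries with PGPC. The LPS effect was below that of cDC2 for Cd300lf (adjusted p = 0.00075), Ctsl (0.00222), C1qb (0.00528), Clec12a (0.00542), C1qc (0.00739), Fcgr3 (0.00739), Mmp8 (0.00963), Hmox1 (0.0172), Cd200 (0.024), Tlr3 (0.0249), Trem2 (0.0249), Lyz2 (0.0251), P2ry12 (0.0274), Ccnd2 (0.0283), Slit2 (0.0325), C1qa (0.0376), March1 (0.0427) and H2-DMa (0.047). Cd200 had 75.5, 104 and 122 CPM in cDC2 with LPS plus PGPC and 0.547 and 1.72 CPM in cDC2 with PGPC. Of the 28, 3 stayed called whichever library was left out (Arhgap28, Cd300lf and Ctsl). The Rab30 difference fell from 8.28 to 1.87 without cDC2 PGPC library 4. That of Kcnh3 fell from 8.85 to 1.66 without cDC2 PGPC library 5.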

How the results depend on the processing

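The 2044 calls of LPS plus PGPC against PGPC were 1598 to 2515 under RLE scaling, TMM without the ribosomal RNA locus, no filter on low counts, DESeq2, voom, the 12 cDC1 libraries and the 24 libraries without alum, 1366 to 1878 when 1 library was left out, 965 with only these 6 libraries and 503 with all 36. The 161 genes whose LPS effect differed with the lipid became 592 without the filter, 506 with DESeq2, 58 with the 12 cDC1 libraries and 18 with all 36, and 33 to 351 when 1 library was left out. The 248 genes whose effect differed between cDC1 and cDC2 became 519 without the filter, 563 with DESeq2, 769 (420 above and 349 below 0) with voom and 24 with all 36, and 33 to 323 when 1 library was left out. Of the 133 named genes called in LPS plus PGPC against PGPC, 119 stayed called whichever library was left out, 63 were lost with all 36 libraries, 21 with 6, 5 with DESeq2 and 1 with voom. Of the 18 named differences with the lipid, 11 were lost with voom. The cause of these changes was not tested. Of the named genes, 3 that were not called with all libraries changed sign when 1 library was left out, with log2 fold changes between -0.67 and 0.29 for Casp1, -0.44 and 5.39 (called without PGPC library 3) for Il10, and -0.44 and 0.67 for Tlr4.

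Replicate numbers are shared by the groups, and the main fit did not take them as pairs. Deviations of same-numbered LPS plus PGPC and PGPC libraries correlated at 0.124, 0.0749 and 0.059, and differently numbered ones at -0.124 to 0.0698. Correlations this small cannot show that the libraries were unpaired. Between LPS plus PGPC and LPS libraries the same-numbered values were 0.176, 0.0304 and 0.133, and the others ran from -0.159 to 0.0507. With a replicate block 2026 genes were called (1249 higher and 777 lower), and 150 and 218 for the differences with the lipid and between cell types. The block ended 4 of the 18 named differences with the lipid and 5 of the 28 between cell types. Every LPS plus PGPC library correlated best with the PGPC library of its own number, and PGPC library 3 correlated best with LPS plus PGPC library 2 (0.0698).

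Depth limits genes with few counts: PGPC library 2 had 2460024 counts. A gene called absent from a group had no count in it, and its bound used a floor of 3 counts per library.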
